A study of Homo sapiens with 24 samples.

Results

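The response of wild-type human embryonic stem cells to 6 h of mesoderm induction was measured by comparing 3 libraries taken at 6 h with 3 libraries taken before induction (0 h). All genes with enough reads entered the comparison, which gave 19835 of the 57820 genes in the deposited table. The cells were of the line HUES6, an established human embryonic stem cell line, grown in FTDA medium. Induced cells received 1.5 ng/ml BMP4, a bone morphogenetic protein, together with 1.5 uM CHIR, a small molecule that turns on WNT signalling by blocking GSK3. The 0 h libraries carry the treatment label control and the genotype label WT. The full series held 24 mRNA libraries, 3 for each of WT and RBPMS KO cells at 0, 3, 6 and 48 h. Of the other groups, WT at 3 h and at 48 h (same agents, 3 libraries each) were used here to place the WT values at 6 h. So were RBPMS KO at 0 h and 6 h (6 libraries). The labels do not say whether libraries of 1 group are separate cultures or whether the KO cells were 1 clone. The p-values therefore measure only the spread between libraries, estimated over all 24.

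Pluripotent stem cells exposed to WNT and BMP ligands enter a program that resembles the primitive streak of the embryo. WNT signals stabilise beta-catenin, which acts with TCF/LEF factors on target genes, and BMP signals phosphorylate SMAD1, SMAD5 and SMAD9, which switch on genes such as the ID family. NODAL, an activin-type ligand, acts downstream of WNT in the embryo and promotes EOMES, TBXT and MIXL1, the transcription factors that mark the streak.

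Read totals were 36778751 to 46369509 per library at 0 h and 39742879 to 50451908 at 6 h. A gene with no read in a library could lie as high as 0.0595 to 0.0816 CPM (3 reads), counting error only. The labelled cell type was checked against stem cell markers, and POU5F1, SOX2, NANOG, LIN28A, DNMT3B, TDGF1 and DPPA4 were all present in every library. RBPMS, the gene knocked out in the other arm, was at 155, 121 and 130 CPM in the WT libraries of 0 h and at 158, 153 and 153 CPM in those labelled RBPMS KO. RBPMS mRNA was not lower under the KO label, so its level does not check that label.

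WT library 1 of 0 h stood apart from libraries 2 and 3. Its log2 values correlated across genes at 0.975 and 0.978 with its mates, which correlated at 0.996 with each other, and it was nearest to a KO library of 0 h (0.987). The 3 libraries of 6 h correlated at 0.997. PEG3, an imprinted gene for a zinc finger protein, was at 13.8 CPM in library 1 and had no read in libraries 2 and 3, against 45.4, 38.7 and 44.8 CPM at 6 h. DNAJC15, which encodes a mitochondrial co-chaperone, was at 11.6, 0 and 0.0272 CPM at 0 h, then 13.1, 13.5 and 14.6 CPM at 6 h. PEG3 also had no read in any KO library of 0 h. INHBA, which encodes an activin subunit, went the other way, with 0.453 CPM in library 1 and 7.99 and 8.86 CPM in its mates. In all, 5 genes were above 5 CPM in library 1 and under 0.5 CPM in both mates, and 3 genes showed the reverse. Glycolysis genes also parted the libraries: ENO2 stood at 437, 85.1 and 127 CPM and SLC2A3 at 2945, 874 and 990 CPM. For many genes whose call or direction turned on this library, values with or without it are given below, but not for all. From 0 h to 6 h the log2 change of DPPA4 was -0.06 over all libraries, not called, and -0.40 with library 1 alone. That of CUX2 was 0.40 and called, but 0.30 and not called without library 1. In the comparison of KO with WT changes, calls of NODAL, AXIN2 and RBPMS also turned on it.

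**Figure D1:**
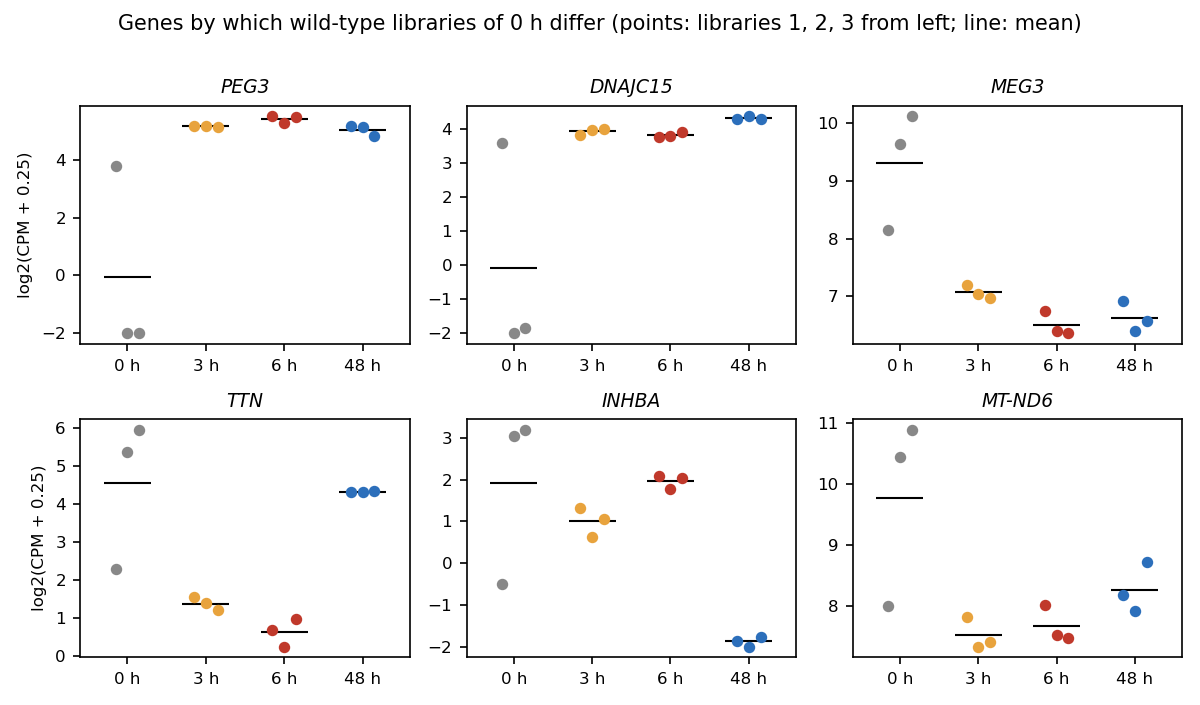
Levels of 6 genes in each wild-type library at 0, 3, 6 and 48 h, as log2(CPM + 0.25) on the vertical axis, with points for libraries 1, 2 and 3 from left to right and a line at the mean. At 0 h library 1 lies far above its mates for PEG3 and DNAJC15 and below them for MEG3, TTN, INHBA and MT-ND6, while the libraries of 3 h and 6 h lie close together.

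After 6 h, 6586 genes were higher (33.2% of those tested) and 5789 were lower (29.2%) at an adjusted p under 0.05 in limma, so that 62.4% were called. Changes are log2 differences with the standard error, computed after scaling the libraries by TMM factors, whereas levels are printed as the deposited CPM. At a change of 2-fold or more, 1991 genes were higher (10%) and 2059 lower (10.4%). The 6 h libraries did not overlap those of 0 h for 12591 genes (63.5%). The split between higher and lower depended on the scaling: 53.2% of calls were higher with TMM factors and 41.3% with CPM as deposited. The median change of all genes was 0.037 on the log2 scale with the factors and -0.115 without them. Without WT library 1 of 0 h, 91.2% of the genes called higher and 89.9% of those called lower were called again the same way. In bulk RNA, fewer cells of a type and less RNA per cell cannot be told apart.

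CDX1, a caudal homeobox gene of the posterior streak, had the largest rise among genes that reached 5 CPM. It had 0.0431, 0 and 0 CPM at 0 h (2 reads in all) and 18.4, 20.5 and 17.5 CPM at 6 h, a ratio of 1166 with a 95% counting interval from 322.5 to 9636. LAMP5, which encodes a lysosome-associated membrane protein, was at 1.29, 0.574 and 0.816 CPM and rose to 30.9, 34.1 and 33.7 CPM (5.07 ± 0.19, adjusted p = 1.32e-15). The amino acid transporter gene SLC1A4 rose from 0.41, 1.25 and 1.31 CPM to 33.4, 32.3 and 35.4 CPM (5.04 ± 0.21, adjusted p = 9.23e-15). No library of 6 h came near the range of 0 h for these 3 genes, but their choice required that the groups not overlap.

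Genes for proteins of varied kinds were also among the 15 largest rises. CBLN1, which encodes a secreted synapse organiser, rose from 0.582, 3.02 and 1.17 CPM to 35.2, 41.5 and 34.4 CPM (4.73 ± 0.29, adjusted p = 3.55e-12). GAD1, which encodes a glutamate decarboxylase, rose by 4.41 ± 0.16 and the NOD-like receptor gene NLRC3 by 4.38 ± 0.20. CYP1A1, an aryl hydrocarbon receptor target, rose from 0.367, 0.449 and 0.489 CPM to 10.8, 11.8 and 13.3 CPM (4.30 ± 0.16, adjusted p = 1.74e-15). SERPINB8, a protease inhibitor gene, rose by 4.18 ± 0.21 and CDH6, a cadherin gene, by 4.08 ± 0.17. EOMES, CER1 and TFAP2A, also among the 15, are described with their pathways.

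PEG3 and DNAJC15 were among the 15 as well and rest on which 0 h library is read. With library 1 as the only one of its group, the change of PEG3 was 1.80 (adjusted p = 8.4e-09) and that of DNAJC15 was 0.41 (adjusted p = 0.0902, limma), against 5.61 ± 0.82 and 4.02 ± 0.78 over all 3. Libraries 2 and 3 hold 0 or 1 read of each gene, and a fitted change against them depends on the pseudocount of 0.25.

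**Figure D2:**
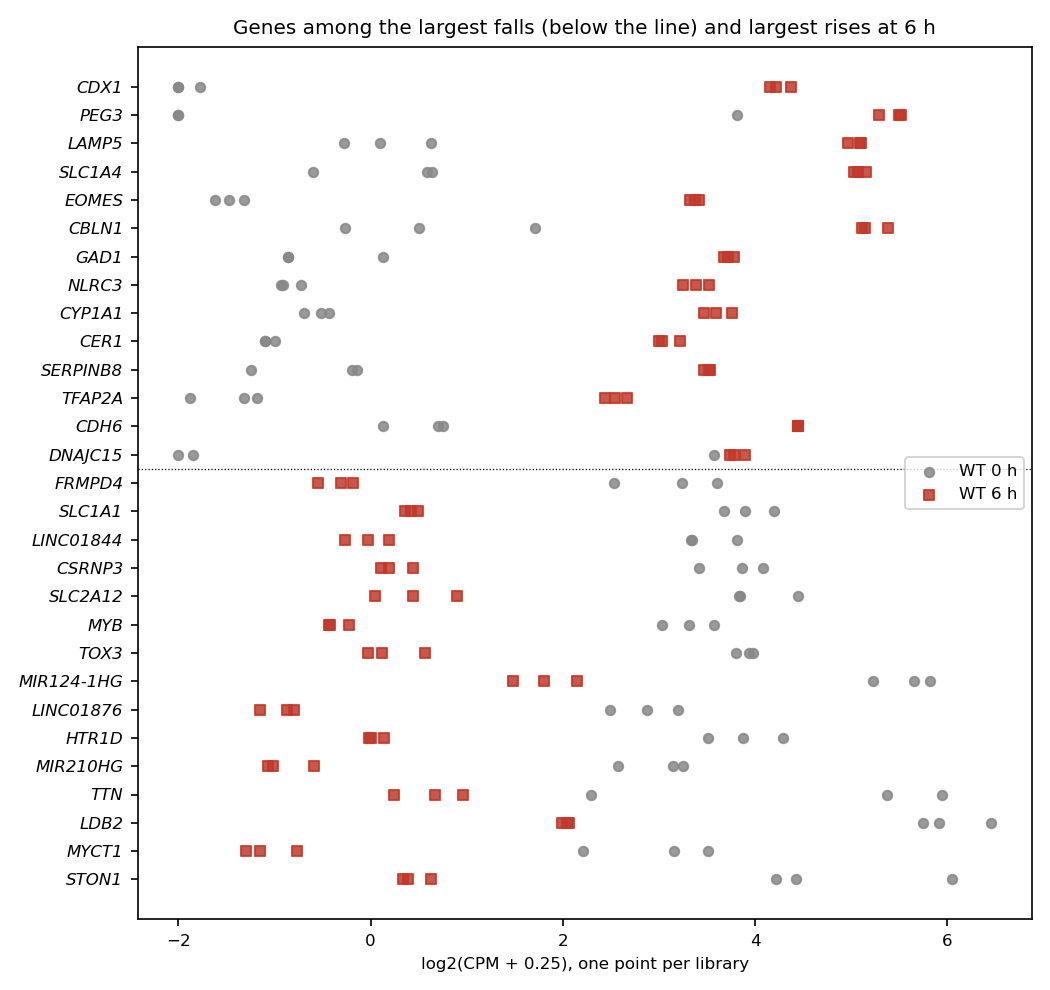
Levels in the 3 WT libraries of 0 h (grey circles) and of 6 h (red squares) for genes among the 15 largest rises and the 15 largest falls, as log2(CPM + 0.25) on the horizontal axis. The groups do not overlap for any gene shown, which the choice required, and the grey points of PEG3, DNAJC15 and TTN lie far apart.

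STON1, which encodes an endocytic adaptor, had the largest fall. It stood at 65.8, 18.3 and 21.3 CPM at 0 h, then 1.29, 1.01 and 1.06 CPM at 6 h (-4.28 ± 0.30, adjusted p = 4.71e-11). Library 1 was again the odd one, and without it the change was -3.70. MYCT1, a MYC target gene, fell from 4.36, 8.69 and 11.1 CPM to 0.156, 0.337 and 0.201 CPM (-3.89 ± 0.24, adjusted p = 6.3e-12). LDB2, which encodes a LIM-domain binding cofactor, fell from 87.6, 53.5 and 59.8 CPM to 3.88, 3.71 and 3.93 CPM (-3.83 ± 0.13, adjusted p = 2.3e-16). All libraries of 6 h were far under the lowest of 0 h for these genes, whose choice also required no overlap.

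The other large falls were of genes of varied kinds. MIR210HG, the host transcript of the hypoxia-responsive miR-210, fell from 9.25, 5.72 and 8.59 CPM to 0.246, 0.416 and 0.226 CPM (-3.74 ± 0.19, adjusted p = 3.13e-13). MIR124-1HG, the host transcript of a brain-enriched miRNA, fell by 3.58 on the log2 scale, LINC01876 by 3.65 and LINC01844 by 3.37. The serotonin receptor gene HTR1D fell from 14.4, 11.1 and 19.3 CPM to 0.737, 0.852 and 0.755 CPM (-3.68 ± 0.19, adjusted p = 3.61e-13). TOX3, a nuclear factor gene, fell by 3.52 and the proto-oncogene MYB by 3.51. The glucose transporter gene SLC2A12 fell by 3.41, CSRNP3 by 3.38, the glutamate transporter gene SLC1A1 by 3.33 and FRMPD4 by 3.31. TTN, the gene for titin, was at 4.64, 41.1 and 61.3 CPM at 0 h and 1.34, 0.932 and 1.69 CPM at 6 h. Its change was -3.74 ± 0.52 over all libraries (adjusted p = 1.61e-06), -4.86 without library 1 and -1.50 with library 1 alone.

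Levels crossed from under 0.5 CPM in every 0 h library to over 5 CPM in every 6 h library for 9 genes: CYP1A1, CALCA, TFAP2A, MSX2, PCDH8, CDX1, NLRC3, CER1 and EOMES. CALCA, which encodes the calcitonin and CGRP peptides, and PCDH8, a protocadherin gene of the streak and somites, were named here because of these values. CALCA was at 0.129, 0.424 and 0.435 CPM at 0 h, then 5.6, 6.03 and 5.26 CPM at 6 h. PCDH8 went from 0.0431, 0.3 and 0.353 CPM to 5.98, 7.31 and 5.86 CPM. In the opposite direction 3 genes crossed, MIR210HG, LINC01876 and a gene with no matched symbol. Of the 9, CYP1A1, CALCA, TFAP2A and PCDH8 were back under 0.5 CPM in all 3 WT libraries of 48 h.

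Of 29 pluripotency genes tested, 10 were higher and 11 lower (34.5% and 37.9%), near the 33.2% and 29.2% of all genes, with a median change of -0.171, and with CPM as deposited the count was 5 higher and 13 lower. POU5F1, the gene for OCT4, had 2204, 1941 and 2001 CPM at 0 h and 1854, 2186 and 2039 CPM at 6 h and was not called (0.17 ± 0.11, adjusted p = 0.185). SOX2 fell from 317, 386 and 382 CPM to 229, 240 and 235 CPM (-0.43 ± 0.12, adjusted p = 0.00335), though not with library 1 alone at 0 h (-0.25, adjusted p = 0.195). NANOG fell from 133, 105 and 119 CPM to 78.1, 78.8 and 74 CPM (-0.44 ± 0.11, adjusted p = 0.00145). Both groups were separate for SOX2 and NANOG and overlapped for POU5F1.

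Other stem cell genes fell further. OTX2, a homeobox gene of the epiblast and forebrain, fell from 29.6, 35.7 and 38 CPM to 7.46, 9.34 and 8.71 CPM (-1.80 ± 0.15, adjusted p = 4.43e-10). DPPA2 fell from 32.6, 28.9 and 30.2 CPM to 9.67, 10.8 and 10.1 CPM (-1.38 ± 0.093, adjusted p = 1.98e-11). The abundant stem cell RNA ESRG fell by 1.43 and TERF1, which encodes a telomere-binding protein, by 0.78. The co-receptor gene TDGF1 fell from 1330, 1195 and 1379 CPM to 695, 674 and 702 CPM, while LIN28A, an RNA-binding protein gene, rose by 0.54 ± 0.091. DNMT3B, the de novo DNA methyltransferase gene, was at 995, 2094 and 2169 CPM at 0 h and 1204, 1204 and 1220 CPM at 6 h. It was not called over all libraries (-0.27, adjusted p = 0.209), was lower without library 1 (-0.63) and higher with library 1 alone (0.47).

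Among 21 further regulators of the stem cell state, 7 were higher and 7 lower (33.3% each), near the 33.2% and 29.2% of all genes. MYCL, a MYC family gene, fell from 28.5, 26.8 and 24.5 CPM to 6.27, 6.62 and 6.21 CPM (-1.84 ± 0.10, adjusted p = 1.15e-12). The IGF2 mRNA-binding protein genes went separate ways, IGF2BP1 rising by 0.72 while IGF2BP2 fell by 1.25 and IGF2BP3 by 1.18. RBPMS itself was at 109, 108 and 101 CPM at 6 h and was not called (-0.16 ± 0.076, adjusted p = 0.0734). It was called lower with CPM as deposited (-0.34, adjusted p = 0.000849), in DESeq2 (-0.24) and with library 1 alone at 0 h (-0.36). Its paralog RBPMS2 was at 72.3, 95.8 and 80.6 CPM and then 93.1, 91.5 and 88.1 CPM (0.33 ± 0.12, adjusted p = 0.0181), with groups that overlapped and an adjusted p of 0.0954 without library 1.

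Genes of the WNT feedback loop were mostly higher, with 16 of 23 up (69.6%) and 4 down, and a median change of 1.253 against 0.037 for all genes. LEF1, which encodes a TCF/LEF factor, rose from 0.129, 0.399 and 0.408 CPM to 5.94, 5.17 and 4.96 CPM (3.49 ± 0.18, adjusted p = 2.04e-13). BAMBI, a decoy receptor that is also a BMP target, rose from 10.7, 13.7 and 10.7 CPM to 50.1, 49 and 49 CPM (2.24 ± 0.097, adjusted p = 2.24e-14). TCF7, a second TCF/LEF gene, rose from 9.77, 11.3 and 11 CPM to 31.7, 28.9 and 28.8 CPM (1.64 ± 0.099, adjusted p = 3.56e-12). These groups lay well apart.

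The secreted WNT deacylase gene NOTUM rose by 3.05 ± 0.17, from 0.496, 0.799 and 0.435 CPM to 5.87, 6.1 and 5.46 CPM, and SP5, a zinc finger target of WNT, by 3.04 ± 0.19. NKD1, an antagonist gene of the pathway, rose from 6.51, 2.27 and 3.59 CPM to 16.7, 17.1 and 15.6 CPM, and the cyclin gene CCND1 rose by 1.36 ± 0.13. AXIN2, often used as a readout of WNT activity, was at 15.5, 32.8 and 35.1 CPM at 0 h and 29.2, 30.2 and 28 CPM at 6 h. It was not called (0.34 ± 0.19, adjusted p = 0.129), its groups overlapped, and the change was 1.08 with library 1 alone and -0.03 without it. RNF43, which encodes a ligase that removes WNT receptors, was at 19.2, 3.45 and 4.13 CPM at 0 h and 2.08, 2.12 and 2.11 CPM at 6 h. It was lower, by 1.36 ± 0.34 on the log2 scale over all libraries (adjusted p = 0.00154) and by 0.60 without library 1. RNF43 was not called with only the groups compared (adjusted p = 0.0702, limma).

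Sequences upstream of the 3 WNT feedback genes and, further on, 3 BMP target genes that rose with the smallest adjusted p are printed to show which motif letters they hold. NOTUM, whose adjusted p lay between those of LEF1 and TCF7, is named only. Each is the 250 bases before the RefSeq gene start (build GRCh38.p14), 5' to 3', in lower case. Capitals mark CTTTGA, the TCF/LEF core, and the SMAD elements GGCGCC and CAGAC, searched on both strands, and no marked matches overlap.
BAMBI (chr10:28677271-28677520, plus strand): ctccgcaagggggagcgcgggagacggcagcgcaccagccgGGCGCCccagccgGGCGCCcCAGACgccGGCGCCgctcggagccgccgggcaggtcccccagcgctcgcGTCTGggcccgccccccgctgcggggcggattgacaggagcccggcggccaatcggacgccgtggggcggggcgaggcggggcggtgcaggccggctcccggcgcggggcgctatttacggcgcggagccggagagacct
LEF1 (chr4:108166302-108166551, minus strand): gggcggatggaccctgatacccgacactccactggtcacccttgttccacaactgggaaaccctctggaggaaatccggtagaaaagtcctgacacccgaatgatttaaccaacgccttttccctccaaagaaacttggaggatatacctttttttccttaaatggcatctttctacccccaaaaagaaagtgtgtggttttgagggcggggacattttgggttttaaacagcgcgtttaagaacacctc
TCF7 (chr5:134115363-134115612, plus strand): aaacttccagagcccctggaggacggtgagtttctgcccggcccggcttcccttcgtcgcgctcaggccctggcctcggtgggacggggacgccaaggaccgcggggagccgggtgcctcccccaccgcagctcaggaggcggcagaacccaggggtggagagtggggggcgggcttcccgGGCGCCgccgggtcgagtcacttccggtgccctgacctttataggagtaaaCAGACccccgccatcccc

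None of these windows, searched from 250 bases before to 50 after the start, held CTTTGA, which 12.9% of all 35116 promoters of that length held. BAMBI held 3 copies of GGCGCC and 2 of CAGAC, TCF7 held 1 of each and LEF1 none. Of all promoters 19.2% held GGCGCC and 45.3% held CAGAC. A match is only a match of letters, and a window without one says nothing of the factor.

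Of 27 WNT ligands and receptors, 11 were higher and 9 lower (40.7% and 33.3%), near the 33.2% and 29.2% of all genes. WNT3, the ligand needed for streak formation, rose from 1.32, 3.85 and 2.99 CPM to 9.46, 9.47 and 8.73 CPM (1.96 ± 0.20, adjusted p = 2.26e-08). WNT10B rose by 3.23 ± 0.15, WNT5B by 2.71 ± 0.19 and WNT8A, at about 1 CPM, by 2.31 ± 0.15. WNT8B fell from 2.29, 1.8 and 2.75 CPM to 0.223, 0.198 and 0.201 CPM, and WNT5A, a ligand of the beta-catenin independent branch, fell from 6.17, 5.57 and 5.49 CPM to 1.41, 0.773 and 1.16 CPM. The receptor gene FZD7 was at 195, 585 and 513 CPM at 0 h and 123, 127 and 124 CPM at 6 h. Its fall was 1.45 ± 0.24 on the log2 scale, 1.95 without library 1 and 0.46 with library 1 alone.

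BMP targets had the highest median change of the 29 gene lists, 1.752, with 18 of 25 higher (72%) and 2 lower. The 4 ID genes, which encode inhibitors of helix-loop-helix factors, were all called. ID3 rose from 13.8, 33.4 and 24.6 CPM to 278, 367 and 283 CPM (3.94 ± 0.25, adjusted p = 1.04e-11). ID1 went from 17, 24.5 and 28.3 CPM to 108, 141 and 111 CPM (2.56 ± 0.22, adjusted p = 1.04e-09). ID2 rose from 9.25, 8.24 and 10.1 CPM to 68.2, 69.6 and 65.2 CPM (3.03 ± 0.12, adjusted p = 3.5e-15). In ID4 the levels were 4.33, 5.54 and 6.58 CPM and then 48.1, 49.3 and 46.7 CPM (3.27 ± 0.13, adjusted p = 6.8e-15). Every 6 h library exceeded every 0 h library for each of them.

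MSX2, a homeobox target of BMP, rose from 0.259, 0.399 and 0.381 CPM to 7.99, 8.4 and 8 CPM (3.96 ± 0.15, adjusted p = 1.77e-15). The transcription factor genes TFAP2A, GATA2 and GATA3, which BMP switches on in surface ectoderm and amnion, rose by 4.13 ± 0.19, 3.62 ± 0.20 and 2.72 ± 0.21, to about 5.62, 3.65 and 2.03 CPM. The feedback inhibitor gene SMAD7 rose from 7.57, 17.9 and 13.6 CPM to 34.9, 38.7 and 37.2 CPM. GREM1, which encodes a secreted BMP antagonist, rose from 0.712, 1.1 and 0.952 CPM to 15.4, 14.6 and 14.4 CPM (3.86 ± 0.22, adjusted p = 1.11e-12). No 6 h library overlapped a 0 h library for SMAD7 or GREM1.

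The upstream sequences of the BMP target genes follow the same convention.
MSX2 (chr5:174724332-174724581, plus strand): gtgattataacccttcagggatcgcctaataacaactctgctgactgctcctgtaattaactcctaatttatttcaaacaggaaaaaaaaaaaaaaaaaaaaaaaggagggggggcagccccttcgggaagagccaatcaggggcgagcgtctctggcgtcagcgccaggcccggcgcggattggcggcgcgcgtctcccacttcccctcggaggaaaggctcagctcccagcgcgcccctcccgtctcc
ID2 (chr2:8681806-8682055, plus strand): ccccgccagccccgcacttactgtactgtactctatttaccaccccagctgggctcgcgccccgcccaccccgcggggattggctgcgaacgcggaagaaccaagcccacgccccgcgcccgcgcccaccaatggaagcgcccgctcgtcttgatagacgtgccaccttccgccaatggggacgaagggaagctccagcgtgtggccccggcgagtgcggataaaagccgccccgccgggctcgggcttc
ID4 (chr6:19837120-19837369, plus strand): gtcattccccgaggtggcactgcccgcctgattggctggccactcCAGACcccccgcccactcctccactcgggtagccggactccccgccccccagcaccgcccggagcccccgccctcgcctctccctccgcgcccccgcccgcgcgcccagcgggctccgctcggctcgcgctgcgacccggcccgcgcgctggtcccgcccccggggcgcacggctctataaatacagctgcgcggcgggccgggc

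ID4 held 1 CAGAC, and neither MSX2 nor ID2 held any of the 3 motifs in this window.

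Of 14 BMP ligands and receptors, 4 were higher and 3 lower (28.6% and 21.4%, against 33.2% and 29.2% of all genes). BMP4, the ligand also supplied in the medium, fell from 9.86, 8.16 and 9.76 CPM to 4.22, 4.32 and 3.6 CPM (-0.97 ± 0.13, adjusted p = 6.83e-07). BMP2 rose from 0.841, 1.82 and 1.98 CPM to 4.64, 4.38 and 4.4 CPM (1.63 ± 0.20, adjusted p = 3.54e-07). The receptor gene BMPR2 fell by 0.87 and the transducer gene SMAD1 rose by 0.74.

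In the NODAL and activin pathway 10 of 19 genes were higher and 2 lower (52.6% and 10.5%, against 33.2% and 29.2% of all genes). The count was 9 higher and 7 lower with CPM as deposited, and 10 and 4 without library 1 of 0 h. NODAL rose from 2.24, 7.74 and 6.06 CPM to 27.4, 32.3 and 28.7 CPM (2.75 ± 0.24, adjusted p = 1.2e-09). Its secreted antagonist gene CER1 rose from 0.216, 0.25 and 0.218 CPM to 7.92, 7.75 and 9.08 CPM (4.28 ± 0.096, adjusted p = 4.92e-19). FST, which encodes the activin-binding protein follistatin, rose by 1.45 ± 0.11 and the antagonist gene LEFTY2 by 1.86 ± 0.23, to under 1.5 CPM. INHBA was not called over all libraries (0.22 ± 0.55, adjusted p = 0.747), was lower without library 1 (-0.98) and higher with library 1 alone (2.61).

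Primitive streak genes were higher in 10 of 18 cases (55.6%), with 2 lower and a median change of 1.136. EOMES, a T-box factor of the anterior streak, had 0.151, 0.0749 and 0.109 CPM at 0 h and 9.78, 10.4 and 10.1 CPM at 6 h (4.96 ± 0.13, adjusted p = 5.9e-18). TBXT, the gene for brachyury, had 3 reads in all at 0 h and 3.08, 2.81 and 2.67 CPM at 6 h, a ratio of 117.4 with a 95% counting interval from 39.88 to 571.9. CDX2 had 1 read at 0 h and 3.62, 4.92 and 3.75 CPM at 6 h, a ratio of 510.2 with an interval from 91.19 to 20190. EVX1, a homeobox gene of the posterior streak, had no read at 0 h and 1.81, 1.88 and 1.33 CPM at 6 h, at least 22.7-fold higher against a floor of 3 reads per library. MIXL1 was at 1.09, 1.37 and 1.36 CPM at 6 h after 0.892 CPM on average at 0 h (0.57 ± 0.16, adjusted p = 0.00426), and was not called with library 1 alone at 0 h (0.39, adjusted p = 0.137) or with only the groups compared (adjusted p = 0.0506). These levels were low beside those of 48 h, when mean CPM was 731 for EOMES, 246 for TBXT and 768 for MIXL1.

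**Figure D3:**
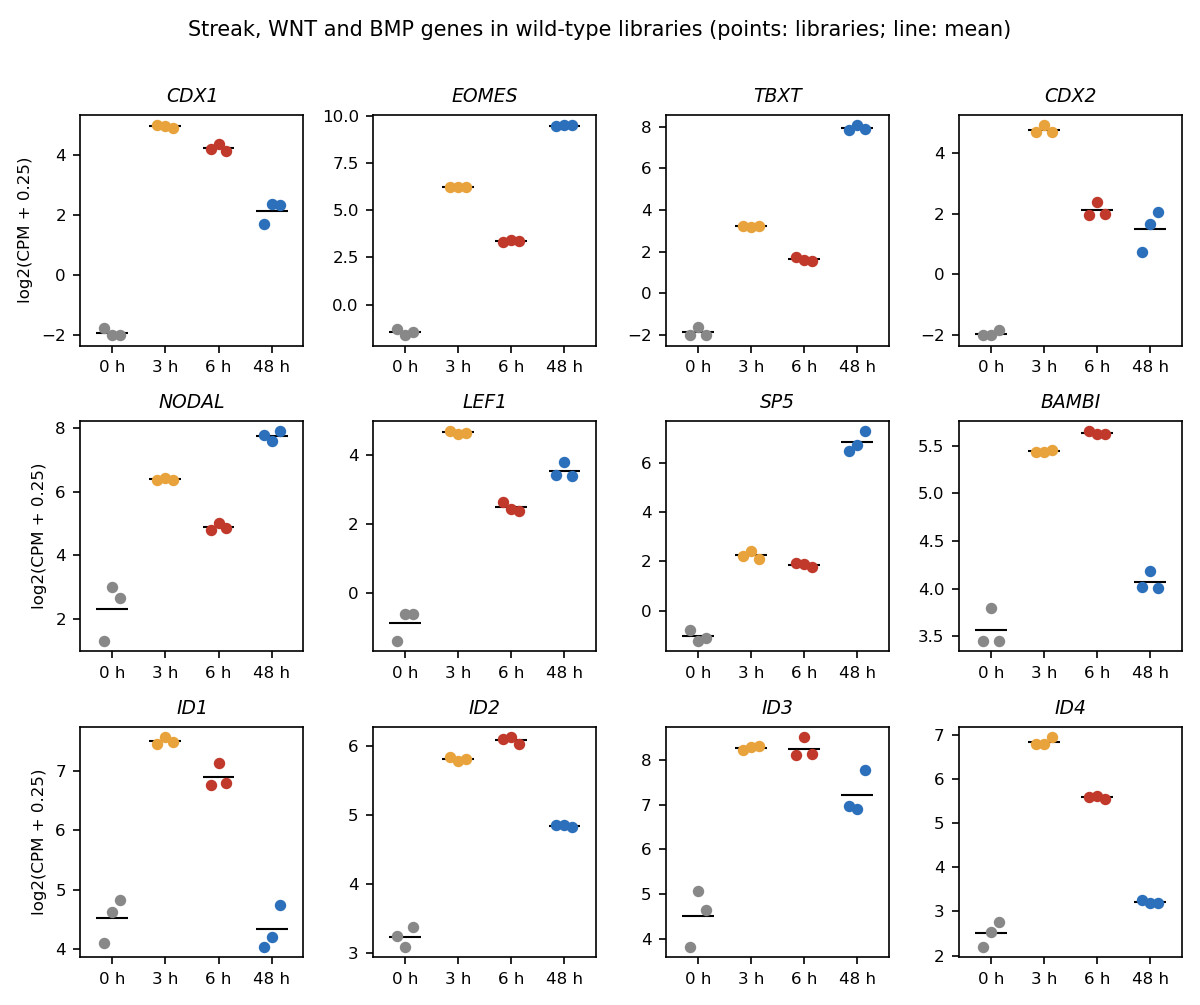
Levels of 12 streak, WNT and BMP genes in each wild-type library at 0, 3, 6 and 48 h, as log2(CPM + 0.25), with points for libraries and a line at the mean. All 12 genes stand above their 0 h libraries at 6 h, and CDX1, EOMES, TBXT, CDX2, NODAL, LEF1 and ID4 lie lower at 6 h than at 3 h.

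Markers of other lineages were called in both directions, as were all genes tested (33.2% higher and 29.2% lower). Of 13 definitive endoderm genes tested 5 were higher and 2 lower (38.5% and 15.4%), led by EOMES and CER1. SOX17 held at most 0.0755 CPM in any WT library of 0 h or 6 h. PRDM1, which encodes a transcriptional repressor, rose by 2.14 ± 0.15 and the receptor gene KIT fell by 1.01. Of 19 cardiac and lateral plate genes 8 were higher and 3 lower (42.1% and 15.8%). KDR, the VEGF receptor gene, fell from 433, 306 and 331 CPM to 98.6, 91.8 and 96.5 CPM (-1.69 ± 0.12, adjusted p = 6.24e-11), and GATA5 rose by 1.89 ± 0.22 to about 1.65 CPM. NKX2-5, a cardiac master gene, was called higher (0.68, adjusted p = 0.00266) at levels of at most 0.0272 CPM at 0 h and 0.238 CPM at 6 h.

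The amnion and trophoblast list had 8 of 13 members higher and 1 lower (61.5% and 7.69%, against 33.2% and 29.2% of all genes). Its summed level was 546.5 to 651.7 CPM at 0 h and 997.6 to 1088 CPM at 6 h. KRT8 and KRT18, keratins of simple epithelia, made up most of that sum, and 3 more members, TFAP2A, GATA2 and GATA3, are also on the BMP target list. Neuroectoderm markers were higher in 3 and lower in 5 of 16 tested (18.8% and 31.2%, against 33.2% and 29.2% of all genes). SOX11 fell by 1.04 and ZNF521 by 1.46, whereas NES, the gene for nestin, rose from 396, 577 and 571 CPM to 830, 860 and 860 CPM. PAX6, a defining neuroectoderm factor, was called higher (0.63, adjusted p = 0.00328) at no more than 0.218 CPM. Neither NKX2-5 nor PAX6 was called with array weights (adjusted p = 0.0795 and 0.119).

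Paraxial mesoderm and Notch genes were higher in 3 and lower in 4 of 19 (15.8% and 21.1%, against 33.2% and 29.2% of all genes). The Notch ligand gene DLL1 fell from 8.73, 3.94 and 4.13 CPM to 0.625, 0.753 and 0.428 CPM (-2.55 ± 0.26, adjusted p = 2.2e-08), while HEY1, a Notch and BMP target, rose by 1.92 ± 0.18. Of 24 HOX genes only 4 passed the filter, and 2 were called higher, among them HOXB1 at a mean of 0.527 CPM (0.67, adjusted p = 0.00784). HOXB1 was not called with library 1 alone at 0 h (0.30, adjusted p = 0.336), without library 3 or with only the groups compared. Fibroblast and stroma markers were 6 higher and 5 lower of 15 (40% and 33.3%), near the shares of all genes. Their summed levels were 1395 to 2034 CPM at 0 h and 1536 to 1624 CPM at 6 h. Whether contaminating cells had a part in any list was not tested.

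Epithelial genes were higher in 10 and lower in 5 of 19 (52.6% and 26.3%, against 33.2% and 29.2% of all genes), and in 7 and 5 with CPM as deposited. OCLN, the gene for occludin, rose from 44.6, 40.1 and 43 CPM to 81.7, 79.6 and 81.7 CPM (1.11 ± 0.066, adjusted p = 2.64e-12), and CLDN6 rose by 0.71. CDH1, the gene for E-cadherin, was at 476, 289 and 318 CPM and then 346, 348 and 357 CPM, and was not called (0.18, adjusted p = 0.217). Without library 1 it was higher (0.40, adjusted p = 0.00053), and with library 1 alone it was not called (-0.26). Mesenchymal genes were higher in 9 and lower in 3 of 18 (50% and 16.7%), and in 6 and 4 with CPM as deposited. ZEB2 was up by 1.95 ± 0.21 to 0.786 CPM on average and VIM, the gene for vimentin, down by 0.68. CDH2, the gene for N-cadherin, was not called over all libraries (-0.19, adjusted p = 0.39), was lower without library 1 (-0.56) and higher with library 1 alone (0.53).

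FGF and ERK feedback genes were higher in 10 and lower in 5 of 24 (41.7% and 20.8%, against 33.2% and 29.2% of all genes). ETV1, an ERK-responsive factor gene, fell from 135, 130 and 138 CPM to 53.8, 51.4 and 54.2 CPM (-1.15 ± 0.11, adjusted p = 5.79e-09), and the feedback inhibitor gene SPRY1 fell by 1.01. SPRED1, another inhibitor of the pathway, and the receptor gene FGFR3 each rose by 1.20. Immediate early genes were higher in 15 and lower in 3 of 27 (55.6% and 11.1%). Without library 1 of 0 h the count was 13 higher and 7 lower. Their summed levels were 469.1, 795.8 and 764.1 CPM at 0 h and 667.8, 731.3 and 686.4 CPM at 6 h. FOSL1, an AP-1 subunit gene, rose from 5.09, 6.69 and 5.82 CPM to 61.8, 66.1 and 56 CPM (3.52 ± 0.16, adjusted p = 4.46e-14), and the TGF-beta-responsive gene KLF10 rose by 2.07 ± 0.14.

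Most genes for growth and division were higher. Ribosome biogenesis factors were higher in 25 of 29 (86.2%) and lower in 1, with a median change of 0.970. DKC1, which encodes the pseudouridine synthase dyskerin, rose from 191, 192 and 180 CPM to 368, 360 and 368 CPM (1.15 ± 0.065, adjusted p = 1.42e-12), and NIP7 rose by 1.57 ± 0.10. Cell cycle genes were higher in 21 and lower in 5 of 32 (65.6% and 15.6%). MCM5, a subunit gene of the replicative helicase, rose from 153, 114 and 110 CPM to 379, 396 and 391 CPM (1.83 ± 0.098, adjusted p = 5.54e-13). RRM2, which encodes a ribonucleotide reductase subunit, rose from 69.7, 141 and 105 CPM to 483, 467 and 492 CPM (2.43 ± 0.15, adjusted p = 3.67e-12). CCNE2, a cyclin gene of the G1/S step, rose from 13.6, 5.84 and 6.01 CPM to 40.3, 41.4 and 40.6 CPM, whereas TOP2A, a topoisomerase gene of late cycle, fell from 1417, 925 and 907 CPM to 451, 408 and 454 CPM. The genes called lower, TOP2A, BUB1, AURKA, AURKB and CDK1, are known for roles late in the cycle.

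Stress genes were higher in 21 of 24 (87.5%), 1 lower and a median change of 1.068. TRIB3, a target of ATF4, rose from 5.09, 9.24 and 6.39 CPM to 41.7, 49.9 and 44.5 CPM (2.89 ± 0.17, adjusted p = 2.28e-12). SLC7A11, the cystine transporter gene, rose from 28.3, 92.7 and 73.8 CPM to 397, 366 and 401 CPM (2.92 ± 0.25, adjusted p = 9.08e-10). ASNS, the asparagine synthetase gene, rose by 1.66 ± 0.24 and CHAC1, a glutathione-degrading enzyme gene, by 2.37 ± 0.22. XBP1 and HERPUD1, both of the unfolded protein response, rose by 1.36 and 1.93. The 0 h values of SLC7A11 were lowest in library 1, and without that library its change was 2.41.

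Targets of p53 were higher in 17 and lower in 3 of 25 (68% and 12%). MDM2, which encodes the ligase that limits p53, rose from 132, 215 and 193 CPM to 557, 528 and 573 CPM (1.83 ± 0.14, adjusted p = 1.16e-10). The cell cycle inhibitor gene CDKN1A rose from 27.1, 43.3 and 40.5 CPM to 100, 109 and 98.1 CPM (1.68 ± 0.16, adjusted p = 4.14e-09). BTG2 rose by 1.68 as well, and DDB2, a DNA repair gene, fell by 1.22.

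Sterol and fatty acid genes were higher in 18 and lower in 1 of 25 (72% and 4%). IDI1, which encodes an isomerase of the isoprenoid pathway, rose from 58.2, 89.4 and 73.6 CPM to 152, 138 and 150 CPM (1.19 ± 0.13, adjusted p = 7.93e-08). SCD, a fatty acid desaturase gene, rose from 732, 733 and 714 CPM to 1013, 1008 and 989 CPM (0.65 ± 0.071, adjusted p = 4.37e-08). Neither gene's groups overlapped. Actin and contractile genes were higher in 20 and lower in 3 of 26 (76.9% and 11.5%, against 33.2% and 29.2% of all genes). ACTB rose from 1963, 2171 and 1939 CPM to 4218, 4800 and 4068 CPM (1.29 ± 0.12, adjusted p = 6.21e-09), and SRF, the factor gene that drives actin genes, from 61, 68.3 and 65.5 CPM to 136, 139 and 129 CPM.

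Of 30 hypoxia and glycolysis genes 11 were higher and 12 lower (36.7% and 40%, against 33.2% and 29.2% of all genes). The count moved with the 0 h libraries read, to 16 higher and 12 lower without library 1. The direction of the summed level also turned on library 1. At 0 h the sum was 25030 CPM in library 1 and 11620 and 13110 CPM in its mates. At 6 h it was 15800, 17080 and 16650 CPM, under library 1 and above its mates. PFKFB4, a hypoxia-induced regulator of glycolysis, fell from 58.9, 30.5 and 43.2 CPM to 9.33, 8.8 and 8.63 CPM (-2.04 ± 0.14, adjusted p = 4.01e-11), and HK1, a hexokinase gene, fell by 0.99. PGK1, a glycolytic enzyme gene, was at 2948, 758 and 1037 CPM at 0 h and 1684, 1833 and 1830 CPM at 6 h. Its change was 0.61 over all libraries (adjusted p = 0.0478), 1.19 without library 1 and -0.54 with library 1 alone.

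Mitochondrially encoded transcripts made up 4.64%, 7.22% and 7.36% of reads at 0 h and 4.66%, 3.64% and 3.50% at 6 h. Of these 15 genes 6 were called lower and none higher in limma over all libraries, 13 were lower without library 1, and 1 was higher and 0 lower with it alone. MT-ND6, the complex I subunit gene on the light strand, was at 256, 1391 and 1900 CPM and then 259, 183 and 178 CPM, and its groups overlapped. Its change was -1.92 over all libraries, -2.81 without library 1 and -0.14 with library 1 alone, where it was not called.

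Metallothionein genes, which encode zinc and copper binding proteins, were higher in 6 and lower in 1 of 9 (66.7% and 11.1%, against 33.2% and 29.2% of all genes). MT1E rose from 5.5, 7.54 and 6.93 CPM to 32.4, 31.6 and 31.3 CPM (2.41 ± 0.22, adjusted p = 2.2e-09), and MT2A from 23.4, 25.2 and 22.9 CPM to 98.8, 92.5 and 93.7 CPM (2.17 ± 0.25, adjusted p = 8.85e-08). These genes are close copies, and how reads shared among them were counted is not given in the sources used here. Imprinted genes were higher in 9 and lower in 5 of 23 (39.1% and 21.7%, against 33.2% and 29.2% of all genes). MEG3, a maternally expressed noncoding RNA, fell from 284, 794 and 1104 CPM to 107, 84.6 and 82.2 CPM (-2.60 ± 0.27, adjusted p = 2.75e-08), by 1.46 with library 1 alone, and its neighbour MEG9 fell by 3.08, or by 1.31 with library 1 alone. PHLDA2, a growth-limiting placental gene, rose by 2.58 ± 0.18. NAP1L5 was at 5.46, 0.424 and 0.571 CPM at 0 h and 9.71, 9.55 and 9.96 CPM at 6 h, a change of 0.99 with library 1 alone.

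**Figure D4:**
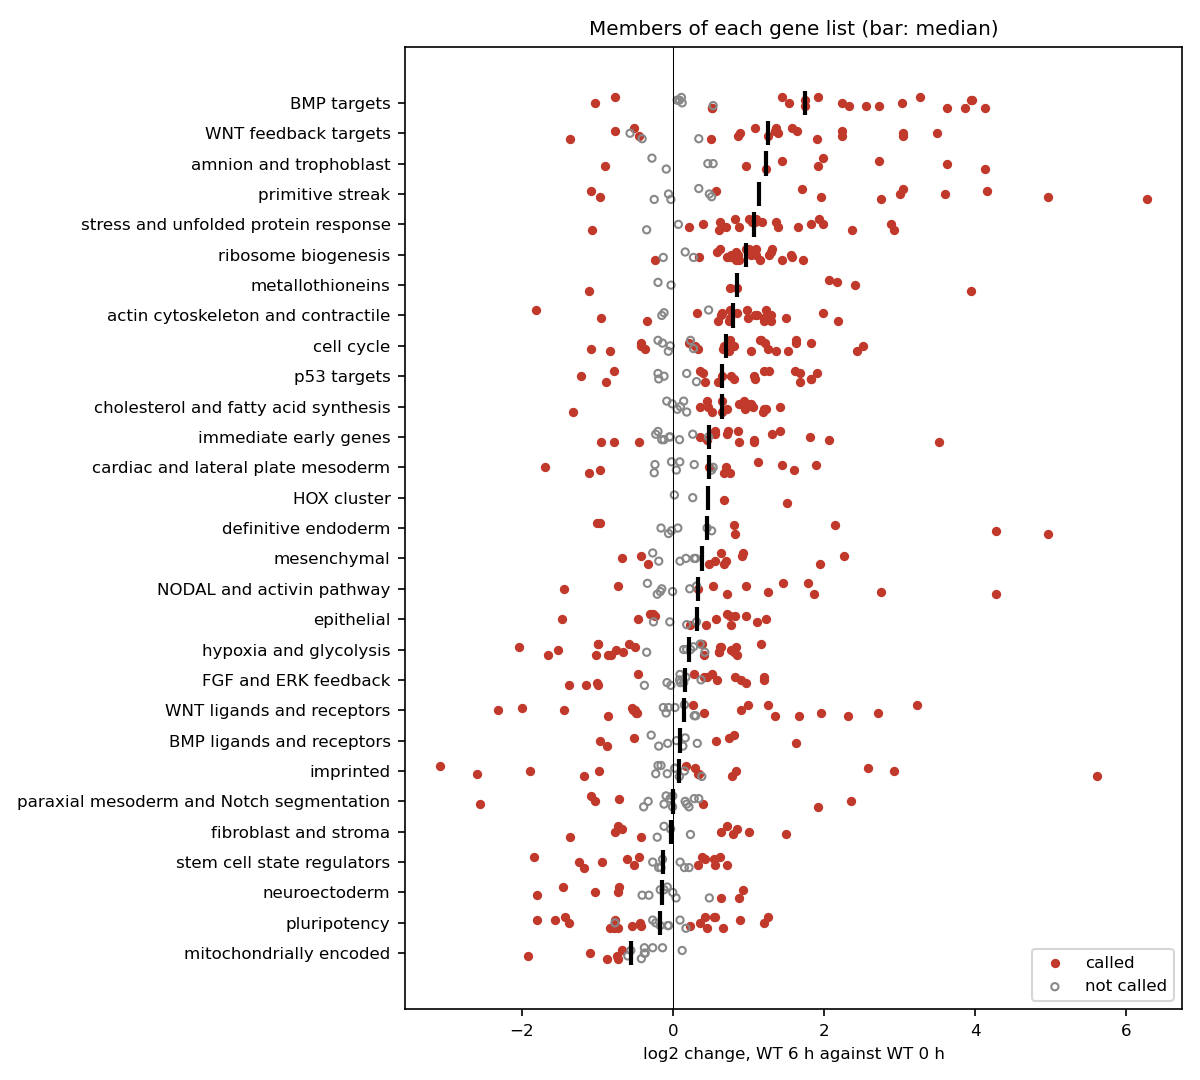
The log2 change from WT 0 h to WT 6 h on the horizontal axis for each tested member of the 29 gene lists, with called genes in red, genes not called as open circles and a bar at the median of each list. BMP targets have the highest median (1.752) and mitochondrially encoded genes the lowest (-0.563).

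Levels at 3 h were compared with those at 0 h and 6 h as a description. Among genes that were 2-fold or more higher at 6 h, the mean of the 3 h libraries lay nearer to the 6 h mean than to the 0 h mean in 89.2%, and among those lower in 91.9%. The 48 h mean lay nearer to the 0 h mean than to the 6 h mean in 65.3% and 59.5%, respectively. These genes were chosen for their difference between 0 h and 6 h, so the shares have no test. The direct test of 6 h against 3 h called 1438 genes higher (7.25%) and 1626 lower (8.20%), 15.4% in all. Of these, 86 (0.434% of those tested) and 211 (1.06%) changed by 2-fold or more. These counts are those of a spread shared by all 24 libraries, and with only the groups compared they were 4140 and 3878.

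Several streak genes stood lower at 6 h than at 3 h. In the list, 8 of 18 were lower at 6 h than at 3 h and 0 higher in limma, against 8.20% lower and 7.25% higher of all genes. EOMES was at 74.5, 75.8 and 76.9 CPM at 3 h and fell to the 6 h values above (-2.83 against 3 h, adjusted p = 4.74e-12). CDX2, at 25.7, 29.9 and 25.6 CPM at 3 h, fell by 2.62 on the log2 scale and TBXT, at 9.27, 8.72 and 9.27 CPM, by 1.55. LEF1 fell by 2.13, NODAL by 1.46 and ID4 by 1.22 from 3 h to 6 h. CDX1 had 32, 31.1 and 30 CPM at 3 h, above its values at 6 h. Of the 4 largest falls past 5 CPM, EOMES was joined by ZEB2 (-3.07), LINC00461 (-2.98) and the receptor gene FZD10 (-2.86). ZEB2 had 7.99, 9.24 and 8.41 CPM at 3 h against 0.938, 0.614 and 0.805 CPM at 6 h. Since EOMES and TBXT were again higher at 48 h, their mean levels at 6 h lay between 2 higher means.

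The largest rises from 3 h to 6 h were of other genes. DOCK4, which encodes a guanine nucleotide exchange factor, had 27.2, 26.5 and 26.1 CPM at 3 h, then 83.7, 78 and 81.2 CPM at 6 h (1.64, adjusted p = 9.76e-08). The reductase gene DHRS2 rose by 1.63 and the homeobox gene CUX2 by 1.64. CUX2 at 6 h (8.44, 8.19 and 6.99 CPM) overlapped its 0 h level (5.8, 7.52 and 6.88 CPM), after 2.28, 2.47 and 2.56 CPM at 3 h. GPX1P1, at 1.94, is a processed copy of GPX1, and its reads may be shared with that gene. Sterol genes also moved after 3 h, 8 of 25 being higher at 6 h than at 3 h and 1 lower, against 7.25% and 8.20% of all genes. IDI1 rose by 0.93 over that interval (adjusted p = 4.15e-05, limma).

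The change from 0 h to 6 h differed between the libraries labelled RBPMS KO and WT for 607 genes in the positive direction (KO minus WT, 3.06%) and 1076 in the negative (5.42%), 8.49% of those tested. The difference was 2-fold or more for 0.650% and 2.86% of genes. WT library 1 of 0 h weighed on this count, and without it 2263 and 2740 genes were called. Of 18 streak genes 1 differed positively (WNT3) and 2 negatively (SP5 and CDX4). For 3 streak factors no difference was detected: EOMES differed by 0.0028 (adjusted p = 0.995), TBXT by 0.11 (adjusted p = 0.78) and CDX1 by 0.25 (adjusted p = 0.51). ID3 rose by more under the KO label, from a lower 0 h level, from 5.67, 6.41 and 10.1 CPM to 361, 263 and 251 CPM (difference 1.48, adjusted p = 0.011), and ID4 differed by 0.79 and WNT3 by 1.07. With WT library 1 alone at 0 h none of these 3 was called (ID3 0.79, adjusted p = 0.164, ID4 0.49, adjusted p = 0.106, and WNT3 0.27, adjusted p = 0.357), and WNT3 was not called with only the groups compared (adjusted p = 0.107). SP5 rose less (-1.50, adjusted p = 0.000768). NANOG fell further (-0.54, adjusted p = 0.0316), a call lost in 13 alternatives, among them upper-quartile factors (adjusted p = 0.0756) and library 1 alone (-0.37, adjusted p = 0.206). MIXL1 differed by -0.64 (adjusted p = 0.0875), and was called without library 1 (-0.73, adjusted p = 0.0234).

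The largest differences were on-off patterns. MEG3 fell from 998, 890 and 898 CPM to 0.0938, 0.0214 and 0.1 CPM in the libraries labelled KO (difference -8.82, adjusted p = 1.56e-13). MT1H had 5.36, 5.39 and 6.16 CPM at 0 h and 0, 0.0428 and 0 CPM at 6 h under that label, whereas in WT it rose from 1.19, 0.399 and 0.163 CPM to 9.51, 9.63 and 10.5 CPM. MT1G (-8.19) showed the same contrast. ZNF558, a zinc finger gene, had 22, 19.3 and 21.3 CPM at 0 h and no read at 6 h under the KO label, against 31, 15 and 16.7 CPM and 18.1, 17.9 and 18 CPM in WT (difference -6.39, adjusted p = 1.44e-14). In the other direction LINC01036 went from 0.0506, 0.125 and 0.0262 CPM to 25.3, 25.5 and 26.1 CPM under the KO label. Its WT levels were 4.1, 0.025 and 0.109 CPM and then 2.52, 2.34 and 2.44 CPM, with library 1 once more apart from its mates. Whether such switches belong to the induction or to the cultures sampled at each hour cannot be told apart with this design.

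**Figure D5:**
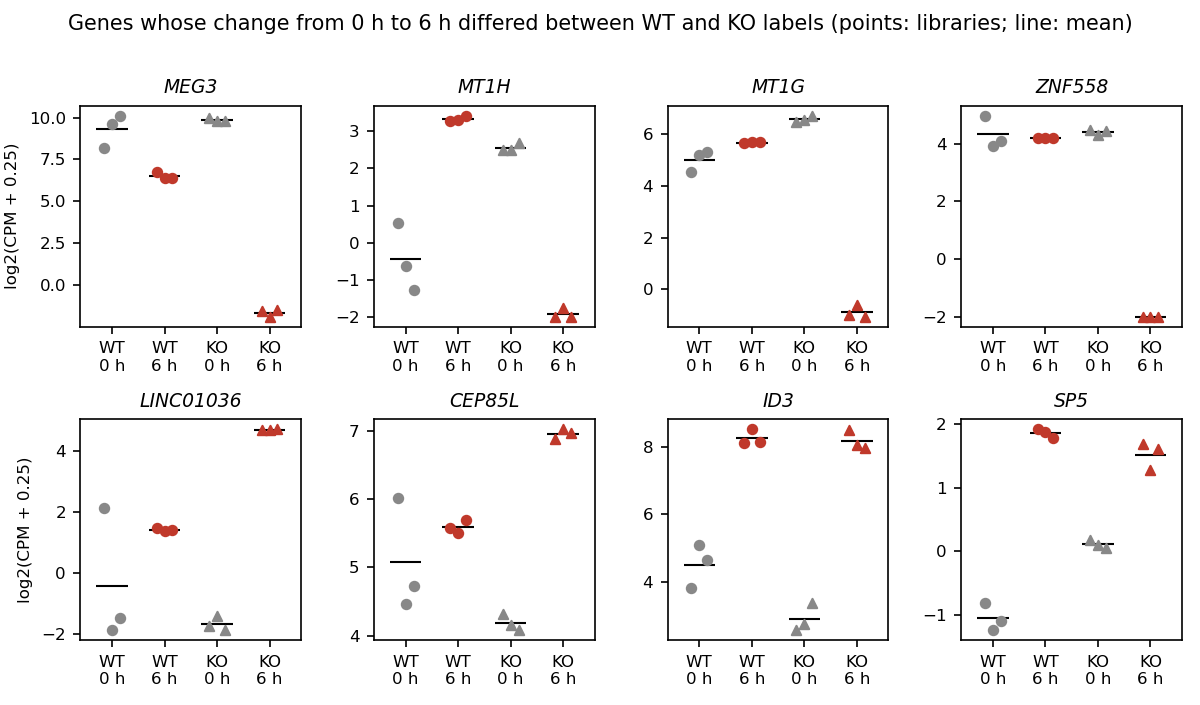
Levels of 8 genes in WT (circles) and RBPMS KO labelled (triangles) libraries at 0 h and 6 h, as log2(CPM + 0.25), with a point per library and a line at the mean. MEG3, MT1H, MT1G and ZNF558 are lowest in the 6 h libraries labelled KO, and LINC01036 and CEP85L are highest there.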

How the data were processed

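The gene table holds CPM, made by the authors, which the values show to be reads scaled to each library's total and not divided by gene length. Per the labels' protocols libraries were made with the Illumina TruSeq stranded mRNA kit, and the submitters' processing notes name hg38 and DESeq2. No aligner or annotation is given in the sources used here. Header names sit 1 cell off the values. After realigning them, each of 24 libraries was closest to its own deposited transcript counts, against 0 with names as they stand. Those transcript counts, deposited by the authors without normalization, served only that check.

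CPM steps gave whole reads for 100% of values within 0.1 read. CPM was divided by TMM factors (edgeR 4.0.16), genes were kept by filterByExpr (10 reads, 15 in total), and log2(CPM + 0.25) of all 24 libraries was fitted with a mean-variance trend (limma 3.58.1, R 4.3.3), 8 group means and no covariate, for 3 comparisons. Adding 0.25 understates changes of genes with low levels. Tests were two-sided, with Benjamini-Hochberg adjustment over 19835 genes and a threshold of 0.05. edgeR's quasi-likelihood test and DESeq2 1.42.0 on the recovered reads were alternatives. Steps were tested on simulated data.

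The comparison, the 29 gene lists and the members named were chosen with earlier results of these data known. Named were the 15 largest called changes each way (at least 2-fold, 5 CPM in a group, no overlap), up to 4 called members per list with the smallest adjusted p, the 4 largest each way for 6 h against 3 h and for KO against WT, and 18 marker genes. Further genes, such as GREM1, FZD7, PGK1, DNMT3B, INHBA and CALCA, were named after their values were seen. Symbols were found for 52338 identifiers (90.5%). Promoters are RefSeq's. Ratios for 1 to 3 reads have 95% counting intervals. Some results are not reported here.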

Additional observations from a re-analysis of the deposited data

Results flagged for a closer look

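The 13 genes below were singled out because their change from 0 h to 6 h differed between libraries labelled RBPMS KO and WT in limma's test of that difference (KO minus WT, log2). The difference was positive for LINC01036 (4.50), LRRC37A11P (2.80), TEX13B (2.38), CEP85L (2.21), ID3 (1.48), WNT3 (1.07) and ID4 (0.79). It was negative for MEG3 (-8.82), MT1H (-8.36), MT1G (-8.19), ZNF558 (-6.39), SP5 (-1.50) and NANOG (-0.54). CEP85L was at 64.7, 21.9 and 26.3 CPM in WT at 0 h and 47.7, 44.9 and 51.4 CPM at 6 h, against 19.7, 17.5 and 16.7 CPM and then 117, 130 and 125 CPM under the KO label. LRRC37A11P and TEX13B shared its pattern of a WT library 1 above its mates at 0 h, at 9.66 against 0.849 and 0.707 CPM for LRRC37A11P and at 14.6 against 4.52 and 5.36 CPM for TEX13B. Without that library the difference was 1.71 for LRRC37A11P, 1.87 for TEX13B and 1.74 for CEP85L, and with it alone 4.96, 3.39 and 3.16. For LINC01036 these values were 3.26 and 6.97. LRRC37A11P was not called with only the groups compared (adjusted p = 0.0814, limma). NANOG lost its call in 13 alternatives and WNT3 in 6, and with library 1 alone ID3, ID4, WNT3 and NANOG were not called.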

How the results depend on the processing

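Of 3742 values recomputed for the named genes from WT 0 h to 6 h, 32 changed sign, 10 of them with a call lost, made or turned and 22 (such as AXIN2, DPPA4 and POU5F1) called in neither fit. Without a change of sign, 68 lost and 27 gained the threshold. None of 152 values for 6 h against 3 h changed sign or call, but these cover only the genes with the largest rises and falls over that interval. Those genes were chosen as large called changes, so their stability was favoured by the choice and says little of other genes. TBXT, CDX2, LEF1, NODAL, ID4 and IDI1 were not among them. For KO minus WT, 21 of 650 values changed sign, none of them called, 22 lost and 20 gained the threshold. With WT library 1 as the only 0 h library, the sign turned for LINC01036 (-0.53), LRRC37A11P (-0.88), TEX13B (-0.57), CEP85L (-0.25), ZNF558 (-0.59), DNMT3B (0.47), PGK1 (-0.54) and CDH2 (0.53). INHBA ran from -0.980 without that library to 0.844 without library 3, and was -1.040 without the 3 libraries that stand apart (also 1 of KO 3 h and 1 of WT 48 h). A filter of 5 CPM, which tests fewer genes, left 3596 genes lower from 0 h to 6 h. Leaving out 1 library gave 6051 to 6729 higher and 5349 to 5916 lower. For 6 h against 3 h, higher and lower counts were 4140 and 3878 with only the groups compared, 4252 and 4360 with array weights, 3808 and 3686 without the 3 libraries, and 880 to 949 and 1085 to 1165 with 1 library left out. For KO minus WT, they were 2528 and 2843 with array weights and 4043 and 3991 without the 3 libraries. DESeq2 gave 933 higher, library 1 alone 1109 higher, and 1 library left out 354 to 2263 higher and 795 to 2740 lower, the upper values without WT 0 h library 1. The cause of these shifts was not tested. With a replicate block the counts were 6561 and 5763, 1401 and 1602, and 605 and 1057. Libraries of the same number in WT 0 h and 6 h did not deviate together (correlations -0.100, -0.027 and -0.021, none best with its own number), so the numbers were not taken as pairs.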
